A study of Mus musculus with 13 samples.

Results

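A panel of 37 endothelial genes was followed, by role and vessel type, through RNA sequencing libraries of mouse lung fibroblasts. The panel holds every row of the deposited table, out of 43346 genes, whose symbol is one of 37 genes that mark endothelium in general or its capillary, arterial, venous and lymphatic forms. They were chosen by their RPKM in the day 14 bleomycin and sham libraries, which were already known, so levels and differences that rest on the day 14 bleomycin libraries are given as a description without a test. Mice of the Col1a1-GFP strain, whose collagen I promoter switches on a green fluorescent reporter, gave 13 libraries: 30 days after bleomycin (n = 5), 14 days after bleomycin (n = 3), 14 days after pneumonectomy, the removal of lung tissue (n = 3), and after sham treatment (n = 2). Bleomycin damages lung tissue, which then scars. An age of 8 weeks is stated for the bleomycin and sham mice, and the deposited table heads the columns of all 4 groups as young. The pneumonectomy libraries are labelled as primary sorted fibroblasts and carry another protocol text, so preparation and pneumonectomy cannot be told apart. The labels give no gate for the sort and no sex, and the reporter marks cells in which the collagen promoter is or was active, which limits these libraries as a model of pure fibroblasts. No label says whether the libraries of a group came from separate animals, so the p-values measure the spread between these libraries, which may be technical.

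Endothelial cells line blood and lymph vessels and hold together through VE-cadherin and claudin-5. They sense vascular endothelial growth factors and angiopoietins through receptor tyrosine kinases, and their identity is maintained by transcription factors of the ETS and SOXF families. In the lung, capillaries form the surface for gas exchange, arteries express connexins and ephrin-B2, veins and activated vessels store von Willebrand factor and P-selectin, and lymphatic vessels depend on PROX1 and VEGFR3.

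Because ETS, SOXF and NF-kB factors are known to act at endothelial promoters, the promoters of the panel were searched on both strands for an ETS motif (CAGGAAG), a SOX motif (ACAATNG, N being any base) and an NF-kB motif (GGG, any 2 bases, then TTTCC). RefSeq (GRCm38.p6) gave 1 or more promoters, from 250 bases before to 50 bases after a start, for 20 of the 37 genes. The ETS letters were found for 5 of the 20 genes (Egfl7, Emcn, Erg, Robo4 and Sele), against 14.8% of the 27025 genes in the table, and the SOX letters for 2 (Robo4 and Tek), against 9.15%. By promoter, 6 of the 25 of the panel held the ETS letters and 2 the SOX letters, against 13.3% and 8.09% of all 32851. No panel promoter held the NF-kB letters, which 1.63% of all promoters hold. The windows of Cldn5, Car4 and Gja4, the most abundant junction, capillary and arterial genes with a listed promoter, held none of the 3 motifs. These shares describe letters in a window, and no match says nothing about the factor. The 3 sequences below are shown as examples with a match and are written 5′ to 3′ on the gene's strand, with the motifs in capitals. Erg, an ETS factor itself, has 3 listed starts, of which 1 held a motif (chr16:95459299-95459598, minus strand). Robo4, a guidance receptor of endothelium, held both a SOX and an ETS match (chr9:37401722-37402021, plus strand), and Sele, the E-selectin of activated endothelium, an ETS match (chr1:164047984-164048283, plus strand). Robo4 and Sele were chosen after their matches were seen.
Erg: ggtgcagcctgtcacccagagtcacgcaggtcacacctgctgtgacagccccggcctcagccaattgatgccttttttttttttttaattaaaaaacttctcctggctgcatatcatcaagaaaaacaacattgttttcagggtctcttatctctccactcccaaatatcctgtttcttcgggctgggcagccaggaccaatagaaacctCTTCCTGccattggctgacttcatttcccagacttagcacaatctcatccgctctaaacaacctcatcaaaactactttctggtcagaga
Robo4: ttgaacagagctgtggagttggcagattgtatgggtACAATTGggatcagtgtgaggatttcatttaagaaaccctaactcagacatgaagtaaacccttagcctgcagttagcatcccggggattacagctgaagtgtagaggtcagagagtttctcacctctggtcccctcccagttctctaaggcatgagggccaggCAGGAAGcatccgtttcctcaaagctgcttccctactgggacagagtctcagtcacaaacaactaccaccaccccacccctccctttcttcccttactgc
Sele: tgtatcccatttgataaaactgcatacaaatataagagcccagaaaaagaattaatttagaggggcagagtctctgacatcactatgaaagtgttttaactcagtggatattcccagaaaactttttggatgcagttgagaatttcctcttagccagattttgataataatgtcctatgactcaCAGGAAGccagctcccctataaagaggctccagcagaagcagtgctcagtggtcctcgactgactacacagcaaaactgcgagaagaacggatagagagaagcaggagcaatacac

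Levels are RPKM, reads per kilobase of gene and per M (mega) reads of the library, as the authors computed them. The depth that the RPKM imply was 133 to 200.2 M reads at day 30 and 79.8 to 99.8 M at day 14 after bleomycin, 68.9 to 75.4 M after pneumonectomy, and 67.6 to 72 M in sham. A single read in a 2-kilobase gene was worth 0.0025 to 0.0074 RPKM, and such limits cover counting error only. The fibroblast label was checked with 8 markers, of which the collagens and other genes differed between groups. The collagen Col1a1 was at 675 to 997 RPKM at day 30 and 1196 to 1633 RPKM at day 14 after bleomycin, 707 to 1427 RPKM after pneumonectomy and 437 to 670 RPKM in sham. Dcn, the matrix proteoglycan decorin, was at 775 to 1295 RPKM at day 30 and 117 to 169 RPKM at day 14 after bleomycin, 515 to 726 RPKM after pneumonectomy and 1382 to 1856 RPKM in sham. At day 14 after bleomycin 5 of the 8 markers lay below sham in every library and 1 above it, where 36.4% and 39.9% of all tested genes did so. The median log2 change of the 8 markers was -1.56. The part of these differences in the endothelial levels was not tested. Levels of Xist, which coats the silenced X chromosome, were 19.9 to 29.2 RPKM at day 30 after bleomycin, 0.0102 to 0.0126 RPKM at day 14 after bleomycin and 0.00448 to 0.0222 RPKM after pneumonectomy. Ddx3y, a Y-linked gene, was listed at 0 in all day 30 bleomycin libraries, with 9.91 to 10.5 RPKM at day 14 after bleomycin and 15.9 to 23.8 RPKM after pneumonectomy. In sham, Xist was at 15.9 RPKM in replicate 1 and 0.0147 RPKM in replicate 2, and Ddx3y at 2.14 RPKM in replicate 1 and 11.4 RPKM in replicate 2, so that replicate 1 had transcripts of both. Sex and group therefore cannot be told apart between day 30 bleomycin and either day 14 group, and the sham libraries differ from each other in both genes. Library 3 of day 30 bleomycin and library A of pneumonectomy stood apart in epithelial markers, whose 7 genes summed to 1232 and 497 RPKM there.

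At day 14 after bleomycin, endothelial transcripts of nearly every class stood at levels many times those of the other groups. The 37 genes summed in RPKM to 72.6 to 77.8 at day 30 and 613 to 1094 at day 14 after bleomycin, 86.5 to 146 after pneumonectomy and 77.7 to 80.7 in sham. By group means, 34 of 37 genes were highest at day 14 after bleomycin, and for 30 of these the pneumonectomy libraries came next. The exceptions were Sele and Prox1, highest after pneumonectomy, and Nr2f2, highest at day 30 after bleomycin. In bulk RNA, a larger number of endothelial cells and more endothelial RNA per cell cannot be told apart.

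**Figure D1:**
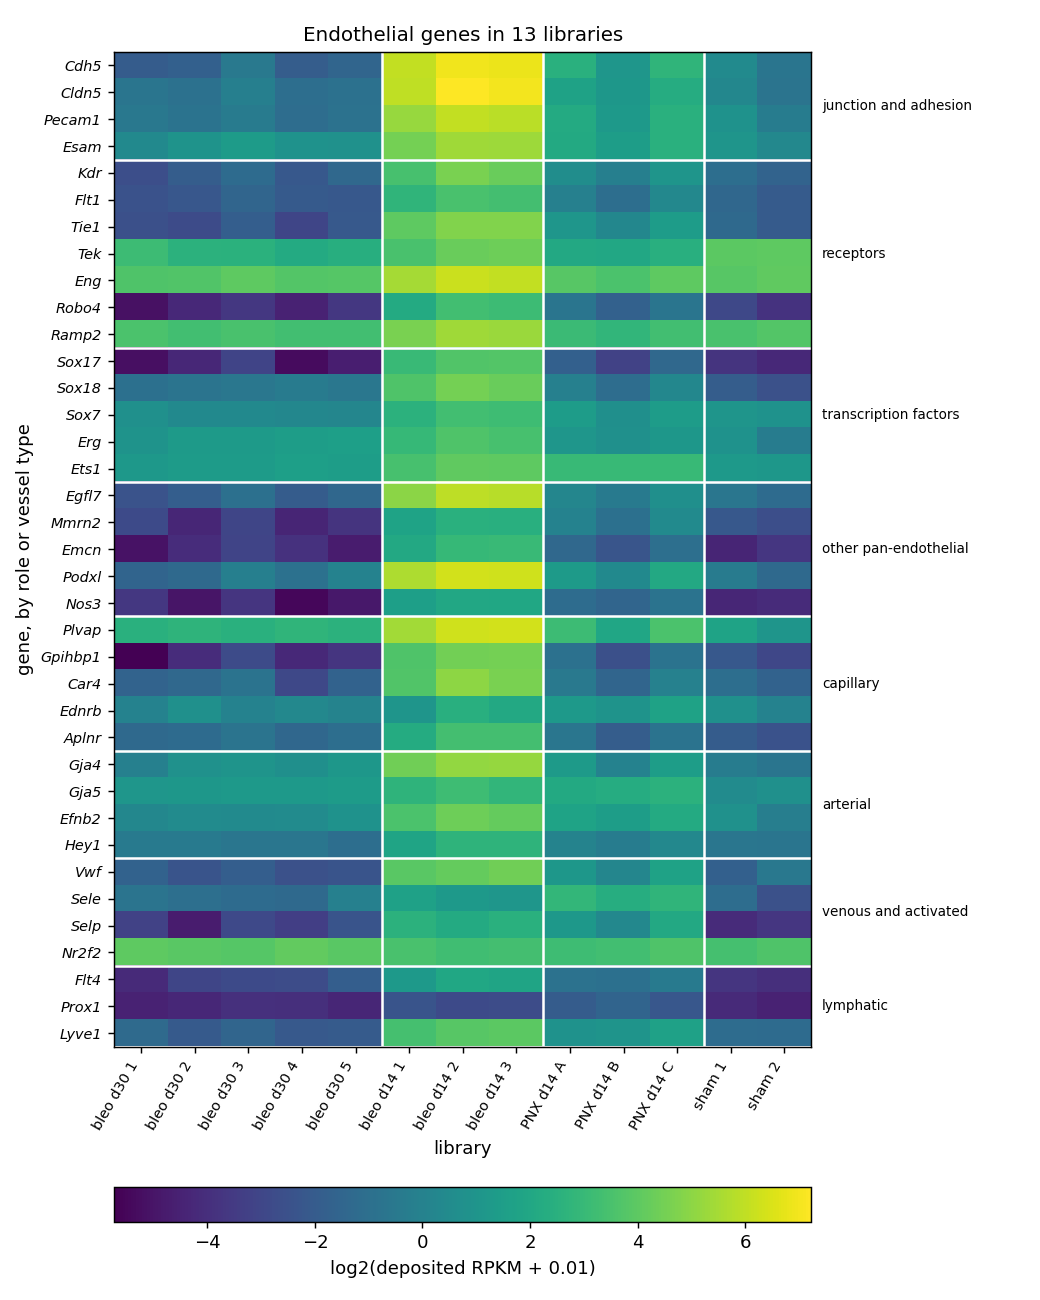
Heat map of log2(deposited RPKM + 0.01) for the 37 endothelial genes (rows, by role or vessel type) in the 13 libraries (columns, by group; PNX stands for pneumonectomy, bleo for bleomycin). By group mean the day 14 bleomycin columns are the brightest for 34 genes, while Nr2f2, Eng, Ramp2 and Tek are bright in every column.

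Values between libraries were scaled, and a log2 change is a difference of log2(scaled RPKM + 0.1), which understates the change of low genes. On the scaled values of day 14 after bleomycin, 35 of 37 genes were above sham in every library, Nr2f2 was below it and Tek overlapped. Of all 12938 genes tested, 39.9% lay above sham in every library and 36.4% below it. The median log2 change was 4.44, against 0.024 over all genes. Day 30 after bleomycin lay below day 14 without overlap for 36 genes and above it for Nr2f2, where 30.8% and 28.3% of all genes did so. The median log2 change of day 30 against day 14 was -4.46, against -0.0084 over all genes. Day 14 bleomycin lay above day 14 pneumonectomy without overlap for 31 genes and below it for Sele, Nr2f2 and Prox1, and Ednrb, Gja5 and Selp overlapped. Over all genes, 37.7% lay above and 36.5% below, and the median log2 change was 2.52 for the 37 genes and 0.019 for all. These comparisons share the day 14 bleomycin libraries and are descriptions.

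**Figure D2:**
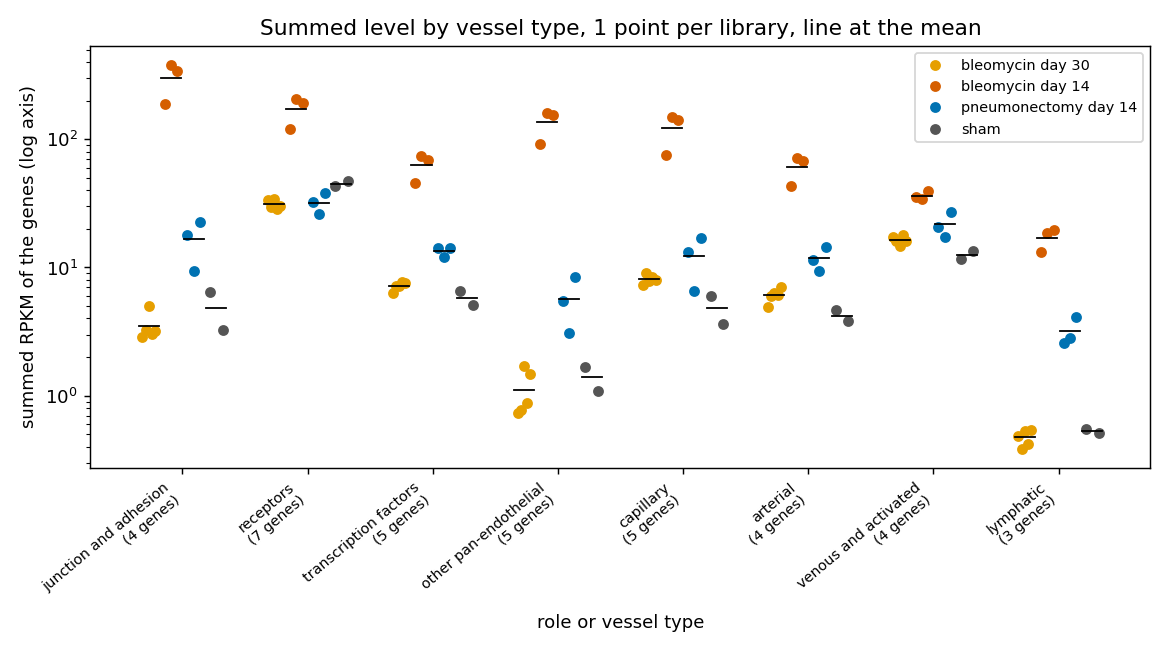
Summed RPKM (log axis) of the genes of each role or vessel type, 1 point per library and a line at the group mean. In every class the day 14 bleomycin points are the highest, from 13.1 to 19.5 RPKM for the 3 lymphatic genes to 189 to 379 RPKM for the 4 junction genes.

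Day 30 bleomycin and pneumonectomy libraries took no part in the comparison that put the panel forward. Day 30 bleomycin was compared with pneumonectomy by limma on all genes. Of the 36 genes that passed the filter on low values (1 RPKM or more in at least 2 libraries), 28 were lower at day 30 than after pneumonectomy. Of all tested genes, the background, 29.0% were lower. Another 0 were higher by limma (background 28.5%, and 0 also at an unadjusted p below 0.05). Of the 36 genes, 11 passed the filter only through the day 14 bleomycin libraries (Flt1, Robo4, Sox17, Sox18, Mmrn2, Emcn, Nos3, Gpihbp1, Car4, Aplnr and Flt4). With the day 30 bleomycin and pneumonectomy libraries alone in the filter and the fit, 19 of 25 genes were lower and 0 higher by limma (0 also at an unadjusted p below 0.05), where 57.7% of all genes were called. In the fit of all 13 libraries, the median log2 change of the 37 genes was -1.77, against 0.011 over all genes. Selp (-3.88 ± 0.32), Cdh5 (-3.64 ± 0.40) and Sele (-3.63 ± 0.28) lay farthest below pneumonectomy. Of the 28 calls, 26 held in every alternative in which the gene was tested, while Eng lost its call in 9 of 14 alternatives and Car4 in 7 of 13. On the scale as deposited 26 genes were lower and 1 higher.

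The sham libraries also served to put the panel forward. Counts and p-values against sham, here and by class below, therefore describe these libraries and are no independent support for the panel. They include the 11 genes named above that passed the filter only through day 14 bleomycin, unless the compared groups alone were fitted. After pneumonectomy limma called 29 of the 36 genes higher than sham (background 22.6%), Tek lower (background 19.3%) and Eng, Ramp2, Sox7, Gpihbp1, Car4 and Nr2f2 in neither direction. With the pneumonectomy and sham libraries alone in the filter and the fit, 16 of 25 genes were higher and 1 lower, where 3374 of all 11257 genes were called. Selectins led: Sele changed by 4.27 ± 0.35 and Selp by 4.16 ± 0.41 on the log2 scale, followed by the receptor Tie1 at 2.51 ± 0.34. The median of the 37 genes was 1.68, against 0.0053 over all genes. Without sham replicate 2 the number of called genes fell to 18, and 14 calls were lost in at least 1 alternative (Cdh5, Esam, Flt1, Robo4, Sox17, Erg, Egfl7, Emcn, Podxl, Plvap, Ednrb, Aplnr, Gja4 and Hey1).

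At day 30 after bleomycin the median of the panel was near sham, with genes on both sides. By limma, Sox18, Plvap, Erg and Gja5 were called higher than sham, Tek and Sox7 were called lower, and 30 genes were not called. With 2 sham libraries, the lack of a call does not show that a gene was unchanged. These 4 higher and 2 lower genes of 36 are set against backgrounds of 14.8% and 14.1% of all genes. At an unadjusted p below 0.05, limma gave 7 higher and 7 lower. With the day 30 bleomycin and sham libraries alone in the filter and the fit, 3 were higher and 2 lower of 13 genes, where 25.8% of all genes were called, so the share of the panel called against the background depends on the filter. In the fit of all 13 libraries, the median log2 change of the 37 genes was -0.17, against -0.0023 over all genes. On the scale as deposited the split was 6 higher and 1 lower. Of the 6 calls, 0 held in every alternative. The Tek call held without any single library but was lost with the replicate number as a block. The Plvap call was lost without any 1 of the 7 libraries.

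**Figure D3:**
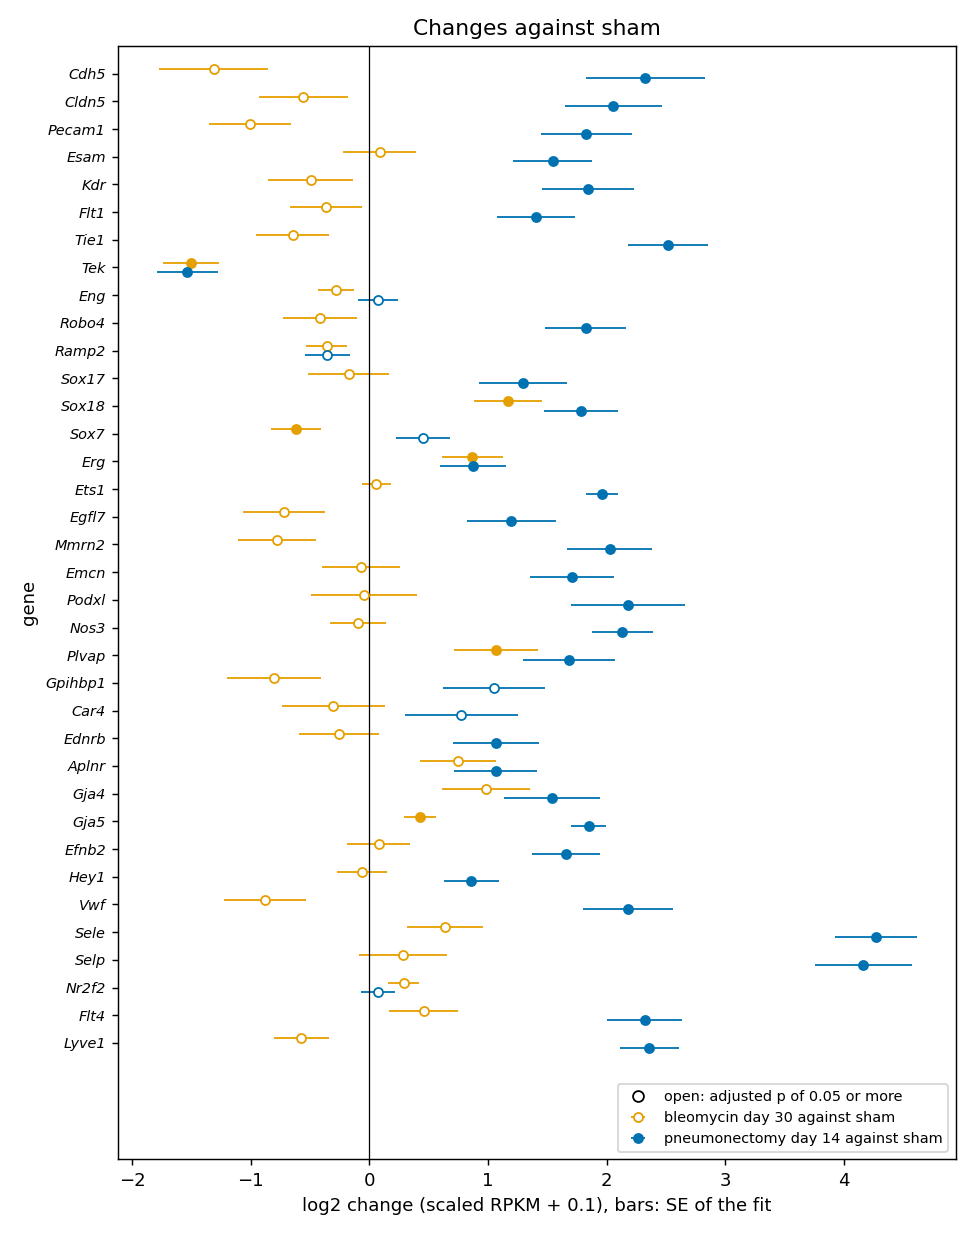
Log2 change of scaled RPKM + 0.1 against sham for the 36 tested genes (rows), with the SE of the fit as bars. Filled points have an adjusted p below 0.05. The pneumonectomy points (blue) lie right of the day 30 bleomycin points (yellow) for nearly every gene, with Sele at 4.27 and Selp at 4.16 farthest right, and both Tek points lie left of 0.

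Junction and adhesion genes had the largest class sum at day 14 after bleomycin, with Cldn5 and Cdh5 the most abundant genes of the panel there. Cldn5, the claudin of endothelial tight junctions, was at 0.613, 0.533, 0.915, 0.468 and 0.524 RPKM at day 30 and 63.5, 150.0 and 127 RPKM at day 14 after bleomycin, with 3.3, 2.17 and 4.98 RPKM after pneumonectomy and 1.21 and 0.59 RPKM in sham. Cdh5 (mm10 chr8:104101625-104144511, plus strand), VE-cadherin of the adherens junctions, was at 0.25, 0.283, 0.691, 0.257 and 0.344 RPKM in the day 30 and 64.8, 123 and 114 RPKM in the day 14 bleomycin libraries, beside 5.72, 2.1 and 6.62 RPKM after pneumonectomy and 1.39 and 0.607 RPKM in sham. The day 14 bleomycin libraries stood above every other library for both genes, and pneumonectomy above sham. Pecam1, the adhesion molecule CD31, was at 0.682, 0.564, 0.793, 0.454 and 0.556 RPKM at day 30 and 37.7, 65.8 and 58.7 RPKM at day 14 after bleomycin, with 4.57, 2.31 and 5.56 RPKM after pneumonectomy and 1.81 and 0.797 RPKM in sham. Esam, an adhesion molecule of tight junctions, was at 1.33, 1.88, 2.61, 1.85 and 1.75 RPKM in the day 30 and 22.6, 41 and 39.7 RPKM in the day 14 bleomycin libraries, beside 4.37, 2.83 and 5.69 RPKM after pneumonectomy and 2.04 and 1.24 RPKM in sham. Esam thus kept at least 1 RPKM in all 13 libraries, which Cdh5, Cldn5 and Pecam1 did not. Against sham, day 14 bleomycin differed by a log2 change of 6.57 ± 0.41 for Cldn5 and 4.06 ± 0.33 for Esam, the ends of the class. After pneumonectomy limma called all 4 higher than sham (background 22.6%). Cdh5 rose by 2.33 ± 0.50 (adjusted p = 0.00365), Cldn5 by 2.05 ± 0.41 (adjusted p = 0.00222), Pecam1 by 1.83 ± 0.38 (adjusted p = 0.00296) and Esam by 1.54 ± 0.33 (adjusted p = 0.00362). At day 30 after bleomycin 0 of the 4 were called against sham by limma (2 at an unadjusted p below 0.05), with Cdh5 at -1.31 ± 0.46 (adjusted p = 0.0519) the farthest.

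The receptors fell into a set that followed the junction genes and a set that was high everywhere. Eng, endoglin, a co-receptor for TGF-beta and BMP ligands, was at 12.7, 13.2, 16.1, 13.5 and 14.1 RPKM at day 30 and 45, 71.9 and 66.2 RPKM at day 14 after bleomycin, with 14.6, 11.9 and 15.9 RPKM after pneumonectomy and 14.7 and 16.5 RPKM in sham. Ramp2, the partner of the adrenomedullin receptor, was at 11.8, 10.0, 11.6, 9.95 and 9.95 RPKM in the day 30 and 24.8, 42.1 and 38.8 RPKM in the day 14 bleomycin libraries, beside 8.66, 7.01 and 9.77 RPKM after pneumonectomy and 11.5 and 13.7 RPKM in sham. Both were at 7.01 RPKM or more in every library, and outside day 14 bleomycin their groups lay close together. Tek (mm10 chr4:94739289-94874976, plus strand), the angiopoietin receptor TIE2, was at 8.76, 6.03, 5.79, 4.54 and 5.31 RPKM at day 30 and 11.6, 19.4 and 20.4 RPKM at day 14 after bleomycin, with 4.21, 4.15 and 5.53 RPKM after pneumonectomy and 15.5 and 15.9 RPKM in sham. Sham lay within the range of day 14 bleomycin for Tek, and above all day 30 bleomycin and pneumonectomy libraries. Tek fell against sham by 1.50 ± 0.24 at day 30 after bleomycin (adjusted p = 0.00126) and by 1.53 ± 0.26 after pneumonectomy (adjusted p = 8.08e-04), on the log2 scale. Tie1, the orphan relative of TEK, went the other way after pneumonectomy, with 0.115 to 0.262 RPKM at day 30 and 15.9 to 27.7 RPKM at day 14 after bleomycin, 1.18 to 2.7 RPKM after pneumonectomy and 0.235 to 0.392 RPKM in sham. Its log2 change against sham was 2.51 ± 0.34 after pneumonectomy (adjusted p = 1.85e-04). Kdr, the main receptor for VEGF-A, had 0.153 to 0.42 RPKM at day 30 and 11 to 25 RPKM at day 14 after bleomycin, 0.906 to 2.01 RPKM after pneumonectomy and 0.321 to 0.474 RPKM in sham. Flt1, the VEGF-A decoy receptor, had 0.174 to 0.342 RPKM at day 30 and 6.77 to 11.4 RPKM at day 14 after bleomycin, 0.467 to 1.24 RPKM after pneumonectomy and 0.239 to 0.371 RPKM in sham. Robo4, whose promoter is shown above, had 0.0184 to 0.0718 RPKM at day 30 and 4.51 to 9.74 RPKM at day 14 after bleomycin, 0.294 to 0.608 RPKM after pneumonectomy and 0.0609 to 0.123 RPKM in sham. In these 4 receptors the day 14 bleomycin libraries lay above all others, and pneumonectomy above sham, where Kdr rose by 1.84 ± 0.39, Flt1 by 1.41 ± 0.33 and Robo4 by 1.82 ± 0.34 on the log2 scale. Of the 7 receptors, 5 were lower at day 30 after bleomycin than after pneumonectomy (background 29.0%). Tek (0.030 ± 0.21) and Ramp2 (-0.0039 ± 0.15) were not called. Of the 5, Flt1 and Robo4 passed the filter only through day 14 bleomycin, and the Eng call was lost in 9 of 14 alternatives.

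All 5 transcription factors were highest at day 14 after bleomycin, and limma called 4 of them higher than sham after pneumonectomy (background 22.6%). Of these, Sox17 and Sox18 passed the filter only through day 14 bleomycin. Ets1, an ETS factor also found in lymphoid and mesenchymal cells, was at 2.29, 2.62, 2.6, 2.94 and 2.79 RPKM at day 30 and 11.1, 16.5 and 16.1 RPKM at day 14 after bleomycin, with 8.13, 8.11 and 7.88 RPKM after pneumonectomy and 2.46 and 2.21 RPKM in sham. Its pneumonectomy libraries spanned 7.88 to 8.13 RPKM, above every day 30 bleomycin and sham library and below every day 14 bleomycin library. The log2 change against sham was 1.96 ± 0.14 after pneumonectomy (adjusted p = 3.22e-06) and 0.058 ± 0.12 at day 30 after bleomycin. Sox18, a SOXF factor of early vessels, was at 0.512, 0.592, 0.652, 0.783 and 0.655 RPKM in the day 30 and 12.7, 22.6 and 19.2 RPKM in the day 14 bleomycin libraries, beside 0.941, 0.458 and 1.2 RPKM after pneumonectomy and 0.256 and 0.163 RPKM in sham. It differed from sham by 1.17 ± 0.29 at day 30 after bleomycin and 1.78 ± 0.32 after pneumonectomy, and its day 30 and pneumonectomy libraries overlapped. Erg, the ETS factor that maintains endothelial identity, was at 1.86, 2.54, 2.53, 2.77 and 3.01 RPKM at day 30 and 7.72, 12.5 and 10.8 RPKM at day 14 after bleomycin, with 2.08, 1.72 and 2.21 RPKM after pneumonectomy and 1.8 and 0.822 RPKM in sham. Day 30 bleomycin was the second-highest group for Erg, and its log2 change against sham, 0.87 ± 0.25, was close to that of pneumonectomy, 0.87 ± 0.28. Neither Erg call held without sham replicate 2, and with a single library left out the adjusted p reached 0.365 at day 30 after bleomycin and 0.327 after pneumonectomy. Sox7, another SOXF factor, had 1.14 to 1.69 RPKM at day 30 and 6.11 to 9.89 RPKM at day 14 after bleomycin, 1.64 to 2.68 RPKM after pneumonectomy and 1.81 to 2.02 RPKM in sham. It fell by 0.62 ± 0.21 at day 30 after bleomycin (adjusted p = 0.0461), a call lost without any 1 of 6 libraries in turn. Sox17, the SOXF factor of arteries and lung microvessels, had 0.0146 to 0.108 RPKM at day 30 and 8.18 to 13.7 RPKM at day 14 after bleomycin, 0.10 to 0.377 RPKM after pneumonectomy and 0.0437 to 0.0621 RPKM in sham. Sox17 had the widest distance of the factors between day 14 bleomycin and sham, a log2 change of 6.02 ± 0.37. It differed from sham by 1.30 ± 0.37 after pneumonectomy, a call lost in 3 of 10 alternatives.

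Other genes common to endothelium followed Cdh5. Podxl, podocalyxin of the luminal surface, was at 0.331, 0.395, 0.892, 0.527 and 1.01 RPKM at day 30 and 50.4, 80.2 and 79.5 RPKM at day 14 after bleomycin, with 2.52, 1.34 and 4.3 RPKM after pneumonectomy and 0.769 and 0.395 RPKM in sham. Egfl7, a protein that endothelium secretes into its matrix and the host gene of miR-126, was at 0.177, 0.267, 0.513, 0.245 and 0.362 RPKM in the day 30 and 31.1, 62 and 58 RPKM in the day 14 bleomycin libraries, beside 1.17, 0.722 and 1.63 RPKM after pneumonectomy and 0.624 and 0.419 RPKM in sham. Emcn, the sialomucin endomucin, was at 0.0195, 0.0481, 0.109, 0.058 and 0.0279 RPKM at day 30 and 4.24, 7.86 and 8.25 RPKM at day 14 after bleomycin, with 0.386, 0.189 and 0.494 RPKM after pneumonectomy and 0.0383 and 0.0694 RPKM in sham. For these genes day 14 bleomycin lay above all other libraries, and day 30 bleomycin overlapped sham. Mmrn2, a matrix protein that binds CD93, had 0.0372 to 0.13 RPKM at day 30 and 3.48 to 5.72 RPKM at day 14 after bleomycin, 0.506 to 1.39 RPKM after pneumonectomy and 0.155 to 0.215 RPKM in sham. Nos3, the endothelial nitric oxide synthase, had 0.0118 to 0.0712 RPKM at day 30 and 2.94 to 4.16 RPKM at day 14 after bleomycin, 0.337 to 0.569 RPKM after pneumonectomy and 0.0394 to 0.0471 RPKM in sham. All 5 rose after pneumonectomy against sham (background 22.6%), from 1.20 ± 0.38 for Egfl7 (adjusted p = 0.0244) to 2.18 ± 0.48 for Podxl (adjusted p = 0.00423). Of these, Mmrn2, Emcn and Nos3 passed the filter only through day 14 bleomycin, and the Egfl7 call was lost in 6 of 11 alternatives. At day 30 after bleomycin 0 of the 5 were called against sham by limma (1 at an unadjusted p below 0.05). All 5 were lower there than after pneumonectomy (background 29.0%), Mmrn2 by a log2 change of -2.80 ± 0.29.

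All 5 capillary genes were highest at day 14 after bleomycin. After pneumonectomy limma called 3 of them (Plvap, Ednrb and Aplnr) higher than sham (background 22.6%). Of these, Aplnr passed the filter only through day 14 bleomycin. The Ednrb call was lost in 5 of 11 alternatives and the Plvap call in 2 of 11. Plvap, which forms the diaphragms of fenestrae and caveolae, was at 5.6, 6.57, 5.59, 6.71 and 6.1 RPKM at day 30 and 42.9, 79.6 and 80.4 RPKM at day 14 after bleomycin, with 8.99, 3.86 and 11.7 RPKM after pneumonectomy and 3.39 and 2.04 RPKM in sham. Plvap was the only capillary gene that limma called higher both at day 30 after bleomycin (1.06 ± 0.35, adjusted p = 0.0429) and after pneumonectomy (1.68 ± 0.39, adjusted p = 0.00523). Its day 30 call was lost in 10 of 14 alternatives. Aplnr was not called at day 30, but every day 30 library lay above sham for it. Car4, a carbonic anhydrase of lung capillaries, was at 0.315, 0.386, 0.57, 0.124 and 0.31 RPKM in the day 30 and 12.9, 32.1 and 24.4 RPKM in the day 14 bleomycin libraries, beside 0.70, 0.344 and 0.952 RPKM after pneumonectomy and 0.474 and 0.304 RPKM in sham. Gpihbp1, which anchors lipoprotein lipase in general capillaries, was at 0.00886, 0.0489, 0.139, 0.0436 and 0.0667 RPKM at day 30 and 12.5, 22.1 and 22.8 RPKM at day 14 after bleomycin, with 0.529, 0.161 and 0.574 RPKM after pneumonectomy and 0.215 and 0.12 RPKM in sham. The lowest Gpihbp1 value, in day 30 replicate 1, rests on an estimated 3.0 reads. Both genes were high at day 14 after bleomycin only, and their pneumonectomy libraries overlapped sham at log2 changes of 0.78 ± 0.48 for Car4 (adjusted p = 0.212) and 1.05 ± 0.43 for Gpihbp1 (adjusted p = 0.0706). Aplnr, the apelin receptor of general capillaries, was at 0.392, 0.427, 0.584, 0.367 and 0.468 RPKM in the day 30 and 4.75, 10.1 and 10.4 RPKM in the day 14 bleomycin libraries, beside 0.636, 0.258 and 0.557 RPKM after pneumonectomy and 0.244 and 0.169 RPKM in sham. Its log2 change against sham was 1.06 ± 0.35 after pneumonectomy, a call lost without any 1 of 4 libraries in turn. Ednrb, an endothelin receptor of aerocytes, the capillary cells that face the air sacs, had 1.01 to 1.69 RPKM at day 30 and 2.02 to 5.37 RPKM at day 14 after bleomycin, 1.91 to 3.3 RPKM after pneumonectomy and 1.01 to 1.71 RPKM in sham. Day 14 bleomycin replicate 1, at 2.02 RPKM, lay within the range of pneumonectomy for Ednrb, so those groups overlapped.

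All 4 arterial genes were highest at day 14 after bleomycin, with pneumonectomy next. Gja4, the connexin Cx37, was at 0.94, 1.75, 1.98, 1.62 and 2.17 RPKM at day 30 and 21.3, 35.1 and 35.7 RPKM at day 14 after bleomycin, with 2.54, 1.0 and 2.77 RPKM after pneumonectomy and 0.817 and 0.619 RPKM in sham. Efnb2, ephrin-B2, the arterial ligand of EphB4, was at 1.19, 1.4, 1.37, 1.41 and 1.81 RPKM in the day 30 and 11.6, 20.4 and 18.2 RPKM in the day 14 bleomycin libraries, beside 3.4, 2.8 and 4.57 RPKM after pneumonectomy and 1.77 and 0.855 RPKM in sham. Day 14 bleomycin was above all other libraries for both. Gja5, the connexin Cx40, was at 2.07, 2.16, 2.32, 2.46 and 2.62 RPKM at day 30 and 6.55, 9.23 and 7.07 RPKM at day 14 after bleomycin, with 4.4, 4.84 and 5.99 RPKM after pneumonectomy and 1.43 and 1.71 RPKM in sham. Its pneumonectomy libraries, 4.40 to 5.99 RPKM, came near the day 14 bleomycin range, and after scaling the ranges overlapped. Hey1, a Notch target of arteries, had 0.482 to 0.733 RPKM at day 30 and 3.63 to 6.47 RPKM at day 14 after bleomycin, 0.821 to 1.24 RPKM after pneumonectomy and 0.609 to 0.621 RPKM in sham. After pneumonectomy limma called all 4 higher than sham (background 22.6%). Gja5 rose by 1.85 ± 0.15 (adjusted p = 7.41e-06), Efnb2 by 1.66 ± 0.29 (adjusted p = 9.84e-04), Gja4 by 1.54 ± 0.40 (adjusted p = 0.0106) and Hey1 by 0.86 ± 0.23 (adjusted p = 0.012). At day 30 after bleomycin Gja5 rose by 0.43 ± 0.14 (adjusted p = 0.0359), lost without any 1 of 5 libraries, and Gja4 differed from sham by 0.98 ± 0.37 (adjusted p = 0.0669).

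Venous and activated-vessel genes differed among themselves in the group with the highest level. Sele (mm10 chr1:164048234-164057677, plus strand), E-selectin, which activated endothelium displays to catch leukocytes, was at 0.578, 0.484, 0.425, 0.402 and 0.934 RPKM at day 30 and 3.18, 2.32 and 2.08 RPKM at day 14 after bleomycin, with 7.15, 5.01 and 6.78 RPKM after pneumonectomy and 0.458 and 0.167 RPKM in sham. Pneumonectomy libraries were higher than every day 14 bleomycin library, which in turn were higher than day 30 and sham. The log2 change of Sele was -1.75 ± 0.31 for day 14 bleomycin against pneumonectomy, and 4.27 ± 0.35 for pneumonectomy against sham (adjusted p = 8.07e-06). Selp, P-selectin of Weibel-Palade bodies and platelets, was at 0.101, 0.0272, 0.128, 0.0916 and 0.181 RPKM in the day 30 and 6.0, 4.6 and 5.65 RPKM in the day 14 bleomycin libraries, beside 2.29, 1.23 and 4.19 RPKM after pneumonectomy and 0.047 and 0.0693 RPKM in sham. It rose by 4.16 ± 0.41 after pneumonectomy (adjusted p = 2.33e-05), and its pneumonectomy and day 14 bleomycin ranges overlapped after scaling. Vwf, von Willebrand factor, was at 0.304, 0.183, 0.271, 0.166 and 0.187 RPKM at day 30 and 15.2, 17.8 and 21.2 RPKM at day 14 after bleomycin, with 2.2, 1.14 and 3.34 RPKM after pneumonectomy and 0.286 and 0.686 RPKM in sham. Its highest levels were at day 14 after bleomycin, and it rose by 2.18 ± 0.38 after pneumonectomy (adjusted p = 9.82e-04). Nr2f2, the venous factor COUP-TFII, which mesenchymal cells also express, was at 16.3, 15.3, 13.8, 17.2 and 14.8 RPKM in the day 30 and 11.3, 9.4 and 10.3 RPKM in the day 14 bleomycin libraries, beside 9.06, 9.9 and 12.8 RPKM after pneumonectomy and 10.8 and 12.5 RPKM in sham. It was called neither at day 30 after bleomycin (0.29 ± 0.13, adjusted p = 0.113) nor after pneumonectomy (0.073 ± 0.14, adjusted p = 0.702) against sham, and it lay below sham at day 14 after bleomycin by a log2 change of -0.41 ± 0.14. On the deposited values the ranges of day 14 bleomycin and sham overlapped for Nr2f2.

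Of the lymphatic genes, Lyve1 and Flt4 were higher at day 14 after bleomycin, and Prox1 hardly registered. Lyve1, the hyaluronan receptor of lymphatic vessels and of some macrophages, was at 0.408, 0.228, 0.345, 0.222 and 0.236 RPKM at day 30 and 10.6, 14.5 and 15.8 RPKM at day 14 after bleomycin, with 1.81, 1.97 and 3.16 RPKM after pneumonectomy and 0.437 and 0.427 RPKM in sham. Flt4, the VEGF-C receptor VEGFR3, was at 0.0449, 0.115, 0.131, 0.141 and 0.264 RPKM in the day 30 and 2.38, 3.92 and 3.56 RPKM in the day 14 bleomycin libraries, beside 0.546, 0.505 and 0.737 RPKM after pneumonectomy and 0.0666 and 0.0541 RPKM in sham. Both were above every other library at day 14 after bleomycin, with pneumonectomy next, with log2 changes against sham of 2.36 ± 0.25 for Lyve1 (adjusted p = 4.16e-05) and 2.32 ± 0.32 for Flt4 after pneumonectomy. Prox1, the transcription factor that specifies lymphatic endothelium, was at 0.0342, 0.0417, 0.0556, 0.054 and 0.0399 RPKM at day 30 and 0.184, 0.134 and 0.143 RPKM at day 14 after bleomycin, with 0.246, 0.332 and 0.204 RPKM after pneumonectomy and 0.0459 and 0.0348 RPKM in sham. It did not reach 1 RPKM anywhere and was not tested, but pneumonectomy lay above day 14 bleomycin, and that above day 30 and sham. Its log2 change with 0.1 added was 1.53 for pneumonectomy against sham, given without a test. Ccl21a, a lymphatic chemokine outside the panel, rose by 4.42 ± 0.40 after pneumonectomy and by 1.80 ± 0.37 at day 30 after bleomycin, and was chosen after its values were seen.

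Within groups, most of the endothelial genes were low or high in the same library, and so were markers of some other cells. In day 14 bleomycin, replicate 1 had a median of 0.641 times the mean of replicates 2 and 3 over the panel, against 0.999 over all genes, with 30 genes under 0.75 where 11.3% of all genes were. Sele (1.53), Prox1 (1.4), Selp (1.24) and Nr2f2 (1.21) were above 1. In pneumonectomy, library B had a median of 0.531 times the mean of A and C, against 0.999 over all genes, with 27 genes under 0.75 where 6.9% of all genes were. Gpihbp1 (0.299), Sox17 (0.31) and Cdh5 (0.349) were lowest, whereas Ets1 (1.04), Gja5 (0.956) and Prox1 (1.51) were not. Sham replicate 1 was a median of 1.45 times replicate 2, with 21 genes over 1.33 where 11.1% of all genes were, Sele (2.74) and Cdh5 (2.29) at the top and Vwf (0.418) at the bottom. Markers of some other cells moved in the same libraries, while others did not. In day 14 bleomycin replicate 1 the median ratio was 0.347 for the 8 macrophage, 0.355 for the 7 epithelial and 0.484 for the 6 lymphocyte markers, with 1.14 for the 8 fibroblast markers. In pneumonectomy library B it was 0.412 for the 6 mesothelial, 0.646 for the 7 epithelial and 0.730 for the 8 macrophage markers. For the 8 fibroblast markers it was 0.845, with 4 of them under 0.75, and for the 11 mural markers 0.855. The epithelial sum was however lowest in library C, at 42.2 RPKM against 97.0 in B and 497 in A. Lymphocyte (1.15) and platelet and megakaryocyte markers (1.30) were not lower in B. In sham replicate 1 over 2 the median ratio was 2.22 for the epithelial, 1.71 for the lymphocyte, 1.35 for the mesothelial and 1.25 for the 11 mural markers. It was 1.17 for the macrophage, 1.00 for the platelet and megakaryocyte and 0.79 for the fibroblast markers.

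**Figure D4:**
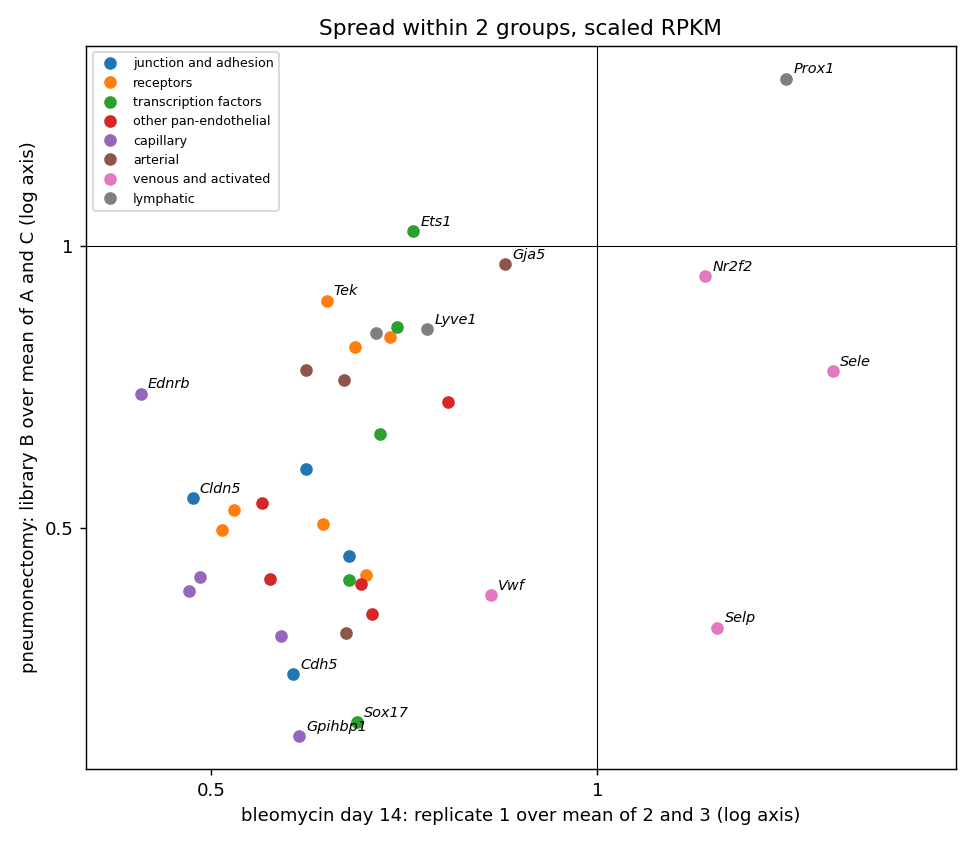
Ratios of scaled RPKM for the 37 genes on log axes, day 14 bleomycin replicate 1 over the mean of 2 and 3 (horizontal) and pneumonectomy library B over the mean of A and C (vertical), with lines at 1. Most genes lie in the lower left, Cdh5 at 0.579 and 0.349, while Sele, Selp, Nr2f2 and Prox1 lie right of the vertical line.

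Each gene was also set over Cdh5 in the same library, for day 14 bleomycin and pneumonectomy. Cdh5 itself stood 3.99 ± 0.45 higher on the log2 scale at day 14 after bleomycin than after pneumonectomy, above the median of 2.52, so a lower ratio for most genes in day 14 bleomycin follows from the choice of Cdh5. A higher ratio in every day 14 bleomycin library was seen for 5 of 36 genes (Sox17, Gpihbp1, Egfl7, Car4 and Podxl). The ratio after pneumonectomy was 54 times that of day 14 bleomycin for Sele, 44.7 times for Prox1 and 9.0 times for Selp. By contrast, it was 0.446 times for Gpihbp1 and 0.439 times for Sox17. Nr2f2 (24.1 times), Gja5 (16.7 times), Ednrb (16.1 times) and Ets1 (14.5 times) kept 1 RPKM or more in every library. For Nr2f2 the ratio to Cdh5 was 20.0 to 67.1 at day 30 after bleomycin and 7.75 to 20.7 in sham. All of these ratios are a description.

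**Figure D5:**
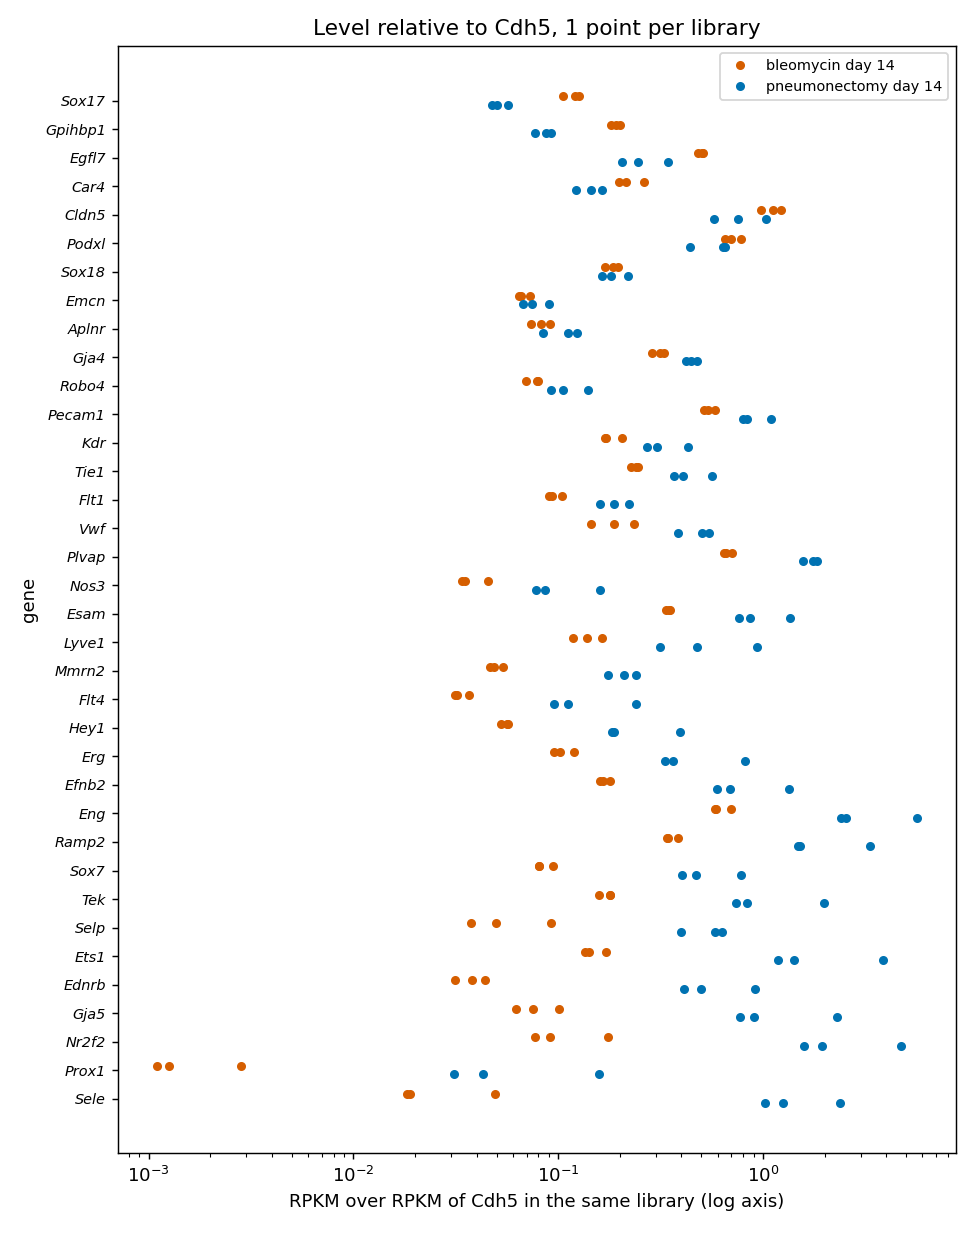
RPKM of each gene over that of Cdh5 in the same library (log axis), 1 point per library, for day 14 bleomycin (orange) and day 14 pneumonectomy (blue). Genes run from those with the higher ratio in day 14 bleomycin, Sox17 at the top, to those with the higher ratio after pneumonectomy, Sele at the bottom.

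A further 41 genes of lung endothelium, listed from textbook markers with earlier results known, were counted beside the panel. After pneumonectomy 24 of 37 that passed the filter rose and 2 fell against sham (median log2 change of all 41, 1.09), at the backgrounds given above. Cyyr1, Icam2, Tal1, Lyl1, She, Arhgef15, Dll4, Notch4, Slc6a2, Apln, Cd300lg and Stab1 passed only through the day 14 bleomycin libraries. The counts of this list are a description and no independent support for the panel. Day 30 after bleomycin had 6 higher and 5 lower against sham (backgrounds 14.8% and 14.1%). Against pneumonectomy it had 1 higher and 24 lower (backgrounds 28.5% and 29.0%). The most abundant members were Thbd, thrombomodulin, Cd34, a sialomucin also of fibroblasts, Cd36, a fatty acid receptor, and Tbx2, a transcription factor. Cd34 fell by 0.80 ± 0.19 at day 30 after bleomycin and by 1.18 ± 0.21 after pneumonectomy. Cd36 was at 1.8 to 9.44 RPKM at day 30 and 90.3 to 155 RPKM at day 14 after bleomycin, 1.75 to 5.46 RPKM after pneumonectomy and 1.28 to 2.08 RPKM in sham and was called in neither comparison with sham. Tbx2 rose in both, by 1.55 ± 0.20 at day 30 after bleomycin and 1.54 ± 0.22 after pneumonectomy. Thbd fell at day 30 after bleomycin by 0.88 ± 0.25.

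Ligands that act on endothelium were counted in the same way. Of 12 ligands, 11 passed the filter, and after pneumonectomy 3 rose and 1 fell against sham, while at day 30 after bleomycin 1 rose and 2 fell. These shares are near the backgrounds of 22.6% and 19.3% after pneumonectomy and 14.8% and 14.1% at day 30. Efnb2, 1 of the 3, is also in the panel. Cxcl12, the ligand of CXCR4, fell after pneumonectomy by 0.55 ± 0.18, and was at 22.6, 19.5, 20.1, 15.7 and 16.8 RPKM at day 30 and 41.4, 52.1 and 48.4 RPKM at day 14 after bleomycin, with 13.2, 9.79 and 9.17 RPKM after pneumonectomy and 16.6 and 19.8 RPKM in sham. Vegfd, which binds VEGFR3, fell by 0.69 ± 0.19 at day 30 after bleomycin. Angpt1, the activating ligand of TEK, rose by 0.78 ± 0.13 after pneumonectomy. It had 10.9 to 14.1 RPKM at day 30 and 6.14 to 6.7 RPKM at day 14 after bleomycin, 16.5 to 17.8 RPKM after pneumonectomy and 9.73 to 13.6 RPKM in sham. Vegfa was called in neither comparison with sham, at -0.032 ± 0.18 at day 30 after bleomycin and 0.21 ± 0.19 after pneumonectomy.

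Markers of other cells moved beside the endothelial genes, and their part in these results was not tested. Against sham, 14.8% of all genes rose and 14.1% fell at day 30 after bleomycin, and 22.6% rose and 19.3% fell after pneumonectomy. The 8 macrophage markers summed in RPKM to 209 to 710.1 at day 30 and 142 to 462 at day 14 after bleomycin, 28.1 to 42.9 after pneumonectomy and 24.9 to 35 in sham, and 7 of 8 rose at day 30 after bleomycin against sham. After pneumonectomy 0 of 8 were called by limma (1 at an unadjusted p below 0.05). The 11 mural cell markers summed in RPKM to 379 to 519 at day 30 and 362 to 429 at day 14 after bleomycin, 821 to 1132 after pneumonectomy and 459 to 849 in sham, and 5 rose and 1 fell after pneumonectomy. The 6 mesothelial markers summed in RPKM to 4.35 to 21 at day 30 and 2.63 to 4.86 at day 14 after bleomycin, 12.5 to 43.5 after pneumonectomy and 2.02 to 3.13 in sham and all 6 rose after pneumonectomy. The 4 erythroid markers summed in RPKM to 0.986 to 2.95 at day 30 and 10.9 to 14.4 at day 14 after bleomycin, 0.831 to 1.42 after pneumonectomy and 1.14 to 5.48 in sham, with 1 of them at 0 in at least 1 library of each group. The 6 platelet and megakaryocyte markers summed in RPKM to 1.76 to 2.97 at day 30 and 2.1 to 3.62 at day 14 after bleomycin, 0.897 to 1.16 after pneumonectomy and 1.57 to 2.11 in sham, with 2 of 6 at 0 in at least 1 pneumonectomy library. The 6 lymphocyte markers summed in RPKM to 0.565 to 0.787 at day 30 and 0.715 to 1.79 at day 14 after bleomycin, 2.03 to 4.52 after pneumonectomy and 0.626 to 1.16 in sham. The 7 epithelial markers summed in RPKM to 6.99 to 1232 at day 30 and 9.19 to 25.5 at day 14 after bleomycin, 42.2 to 497 after pneumonectomy and 11.6 to 16.1 in sham. No marker of these lists was at 0 in all 13 libraries.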

How the data were processed

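RNA from sorted mouse lung fibroblasts was sequenced in 13 libraries. The deposited values are RPKM per gene, computed by the authors on mm10 per the submitters' processing notes; the aligner, counter and annotation are not given in the sources used here. For the bleomycin and sham libraries the labels' protocols state 200 ng of RNA, RNA quality (RQN) of 6 or more, oligo-dT enrichment and 12 cycles of PCR. The 3 pneumonectomy columns carry no replicate number of the labels and are named A, B and C. All columns of values were used. Depth was estimated from the steps between low RPKM values with GENCODE M21 gene lengths; gene positions come from the same release. The filter kept 12938 genes that reached 1 RPKM in 2 or more libraries. RPKM were scaled with trimmed-mean factors (30% of ratios, 5% of levels), 0.1 was added, and log2 values were fitted in 1 linear model with a mean per group in limma 3.58.1 (R 4.3.3; empirical Bayes, intensity trend, robust), after tests on simulated data. P-values are two-sided and Benjamini-Hochberg adjusted over all genes tested, called at 0.05; errors are SE of the fit. The fit shares 1 spread over 4 groups. The 37 genes and all lists were chosen with earlier results of these data known. Values in every library are given for the 3 most abundant genes of a class and for any gene whose order of groups differs from its class; of other lists, up to 4 of the most abundant are named. Alternatives were the pseudocount, filter, scaling, samples fitted, a replicate block, and leaving out each library.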

Additional observations from a re-analysis of the deposited data

Results flagged for a closer look

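Of the 37 genes examined at day 30 after bleomycin, the only group of 4 or more libraries, 2 had a single library far from the others. Chance flags about 1 in 20 groups. Cdh5 was at 0.691 RPKM in replicate 3, against 0.250 to 0.344 RPKM in the others. Sox17 was at 0.108 RPKM in replicate 3, against 0.0146 to 0.0408 RPKM in the others. The same library had the highest summed epithelial markers (1232 RPKM) and macrophage markers (710.1 RPKM) of its group, whose part in these values was not tested.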

How the results depend on the processing

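Fitting the compared groups alone also changed which genes passed the filter, and the fit with the replicate number as a block also left out the pneumonectomy libraries. Day 30 bleomycin against sham called 6 genes, 2 with 1 in place of 0.1 added, 3 without the filter, 5 of 13 tested when the compared groups alone were fitted, 2 to 7 with 1 library left out and 0 (9 at an unadjusted p below 0.05) by limma with the replicate number as a block in the bleomycin and sham libraries. Whether the numbers pair the libraries is not known. Deviations of same-numbered libraries from their group means correlated at -0.127 to 0.136, which cannot settle it in groups this small. The pneumonectomy columns carry no replicate number. Pneumonectomy against sham called 30 genes, 17 of 25 tested when the compared groups alone were fitted, and 18 to 32 with 1 library left out. Day 30 bleomycin against pneumonectomy called 28, 19 of 25 tested when the compared groups alone were fitted, and 26 to 31 with 1 library left out. With 1 in place of 0.1 added, the median log2 change became 2.72 for day 14 bleomycin against sham, -2.69 for day 30 against day 14 and 2.18 for day 14 bleomycin against pneumonectomy. With 0.01 added it became 4.98 for day 14 bleomycin against sham and -4.65 for day 30 against day 14, and on the scale as deposited 2.98 for day 14 bleomycin against pneumonectomy. With 1 library left out it was 4.32 to 4.61, -4.53 to -4.30 and 2.22 to 2.72 in these 3 comparisons. The deposited scale put the median of all genes at -0.21 for pneumonectomy against sham, 0.34 for day 30 bleomycin against pneumonectomy, 0.11 for day 30 and 0.26 for day 14 bleomycin against sham, -0.13 for day 30 against day 14 and 0.47 for day 14 bleomycin against pneumonectomy, and upper-quartile scaling put it at -0.12, 0.15 and 0.13 in the 3 comparisons with pneumonectomy, the first of them against sham, then day 30 and day 14 bleomycin.

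Reversals touched uncalled genes near 0, and the cause was not tested. For day 30 bleomycin against sham, the block gave Esam -0.047, Ets1 -0.051, Efnb2 -0.057 and Hey1 0.033, and the deposited scale gave Hey1 0.040 and Podxl 0.055. With 1 library left out, Esam ranged over -0.25 to 0.43, Ets1 -0.011 to 0.13, Emcn -0.22 to 0.078, Podxl -0.45 to 0.36, Ednrb -0.61 to 0.10, Efnb2 -0.40 to 0.56 and Hey1 -0.11 to 0.029. For pneumonectomy against sham, Eng was -0.15 as deposited and -0.056 with upper-quartile scaling, and Nr2f2 -0.15 and -0.056. Leaving out 1 library gave Eng -0.010 to 0.17 and Nr2f2 -0.064 to 0.19. For day 30 bleomycin against pneumonectomy, Ramp2 was 0.33 as deposited and 0.14 with upper-quartile scaling, and Erg 0.32 and 0.13. Leaving out 1 library gave Tek -0.11 to 0.15, Ramp2 -0.12 to 0.087 and Erg -0.095 to 0.094. Sham has 2 libraries, so leaving 1 out assumes that the other varies like the remaining groups. Genes under 0.1 RPKM rest on few reads, which limits their log2 changes.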
